A study of Mus musculus with 4 samples.

Results

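Cacul1, the cullins Cul1, Cul2, Cul3, Cul4a, Cul4b, Cul5 and Cul7, and the RING protein gene Rbx1 were followed by RNA-seq in 4 stable lines of 3T3-L1 cells. They were chosen by gene symbol, from the RefSeq identifiers of the deposited rows, and are 9 of the 13085 genes measured. Each of the 9 had 1 row, and all 9 had at least 1 FPKM (fragments per kilobase of transcript and per 1000000 mapped fragments) in all 4 lines, as did 9563 genes in total.

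3T3-L1 is a murine preadipocyte line that turns into fat cells under an adipogenic mixture. FLAG cells carried the empty FLAG vector and FLAG-CACUL1 cells the same vector with CACUL1, both selected with G418. In sh-Luc cells a short hairpin RNA was directed against luciferase and in sh-CACUL1 cells against CACUL1, both selected with Hygromycin B. All 4 lines came from drug-resistant colonies, with no statement of whether these were pooled, were induced with rosiglitazone (5 µM), insulin (5 µg/ml), IBMX (0.5 mM) and dexamethasone (1 µg/ml), and were sampled on differentiation day 8. Each line was 1 sample, so no difference below has a replicate check, and no test between lines was possible. The vector, the drug and the colonies differ between the FLAG pair and the hairpin pair and cannot be told apart.

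Cullins are the scaffolds of the cullin-RING ubiquitin ligases. One end of a cullin holds a RING protein, RBX1 or its relative RNF7, which brings in the ubiquitin-loaded enzyme, and the other end holds an adaptor and a receptor that chooses the protein to be marked. The ligase is switched on when the ubiquitin-like protein NEDD8 is joined to a lysine of the cullin, the COP9 signalosome removes NEDD8 again, and CAND1 exchanges the receptors. CACUL1, the CDK2-associated cullin domain protein, carries a cullin domain and binds CDK2, and in the study it was examined as a repressor of PPARγ, the transcription factor that drives adipocyte differentiation. Cullin ligases are also known for controlling insulin signalling, as when CUL7 with FBXW8 marks the insulin receptor substrate IRS1.

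The lysine that takes NEDD8 lies near the end of the cullin protein, and the reading frame around it is shown because the neddylation genes are described below beside the cullins. The frame was searched for the 4 codons NGN, ATN, ATG and AAN in a row, where N is any base and the last codon gives lysine or asparagine, which were found in 1.62% of 21729 mouse genes. The matches below are 30 bases long, from coding exons of GENCODE M21 on GRCm38, with the lysine codon in capitals.

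Cul1, chr6:47524520-47524549, plus strand: gccatcgtgagaatcatgAAAatgaggaag
Cul3, chr1:80269240-80269269, minus strand: gctatagtgcgaataatgAAGtctaggaag
Cul4a, chr8:13144340-13144369, plus strand: gctatagtcagaataatgAAAatgaggaag
Cul4b, chrX:38537182-38537211, minus strand: gcgatcgttcgaattatgAAGatgagaaaa

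The lysine was codon 720 of Cul1, 712 of Cul3, 705 of Cul4a and 916 of Cul4b, in the last exon but 1 of each gene. It lay 56 codons before the end of the reading frame in Cul1 and Cul3 and 54 codons before the end in Cul4a and Cul4b. Cul2 also matched, 56 codons before its end. Cul7 matched at codon 1120 of a much longer frame of 1689 codons, far from its end, at a place with other surroundings. Cacul1, Cul5 and Rbx1 held no match, which says only that these letters are not in their frames.

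The 4 libraries were estimated, from the steps in their low FPKM values, at between 14300000 and 24000000 fragments, with sh-Luc the deepest. Their FPKM sums ranged from 372148 to 473584. All 8 adipocyte markers (Adipoq, Fabp4, Plin1, Cidec, Lpl, Pparg, Cebpa, Cfd) were measured, and their summed FPKM was 8401 in FLAG and 882 with FLAG-CACUL1, 1688 in sh-Luc and 17517 with sh-CACUL1. The 7 preadipocyte and fibroblast markers measured summed to 4222, 6506, 2665 and 569 FPKM in the same order. Col1a1 and Col1a2 made up most of these sums, and the others did not all follow them, with Dlk1 at 97.2, 39.4, 0.220 and 21.2 FPKM and Thy1 at 42.4, 144, 0.663 and 34.3 FPKM. Of the macrophage, endothelial and muscle markers, 2 of 5, 1 of 3 and 1 of 3 were measured, with sums of 1.08 to 16.8, 0.0217 to 0.301 and 1.13 to 8.35 FPKM, each highest in FLAG. Cd68 was at 16.2 FPKM in FLAG and at 0.962 to 1.44 in the other lines, and Des was at 8.35, 5.94, 1.13 and 4.04 FPKM in the order above. No marker measured was listed at 0, but 0 of the 13110 deposited rows were, so that does not set the markers apart. The marker sums differed between the lines that are compared, and their part in the differences below was not tested. In a bulk sample, fewer cells of a type and less RNA per cell cannot be told apart.

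The 9 genes lie on 9 different chromosomes, Cacul1 on 19, Cul1 on 6, Cul2 on 18, Cul3 on 1, Cul4a on 8, Cul4b on X, Cul5 on 9, Cul7 on 17 and Rbx1 on 15. They were expressed at middle to high levels. In FLAG cells Cul5 was the lowest of them at 5.00 FPKM, at percentile 43.0 of all genes, and Cul4a the highest at 38.0 FPKM, at percentile 85.7. Rbx1 was the highest in the other 3 lines, and Cacul1 became the lowest in sh-CACUL1 cells. The median of the 9 was 19.1 FPKM in FLAG and 26.3 with FLAG-CACUL1, 35.3 in sh-Luc and 20.5 with sh-CACUL1, against all-gene medians of 6.73, 7.32, 8.28 and 5.68.

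**Figure D1:**
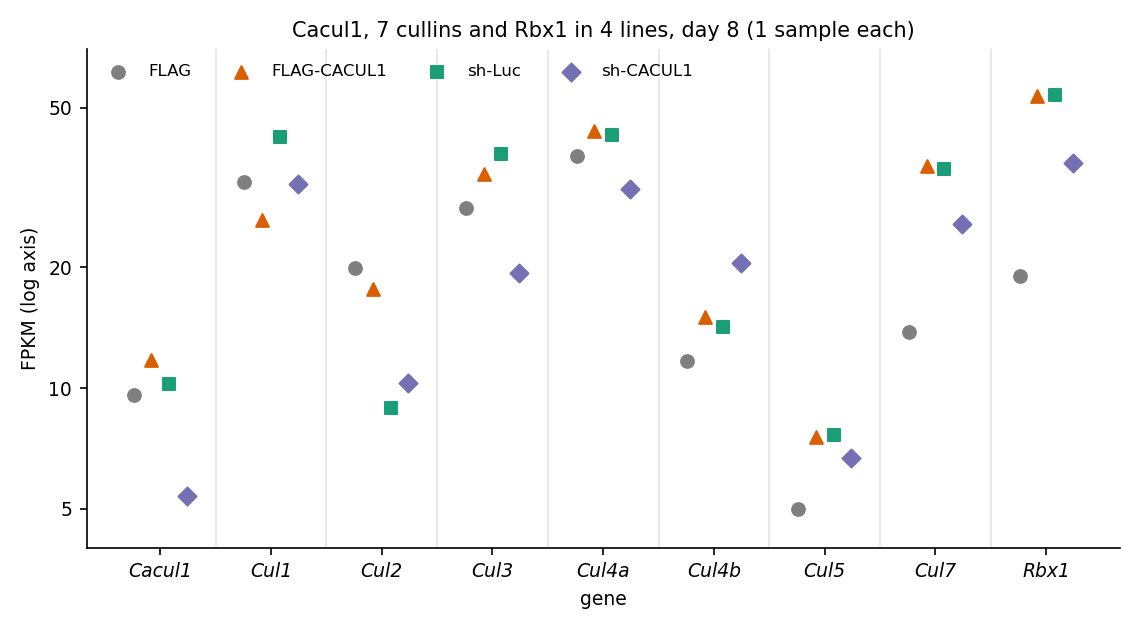
FPKM (log axis) of the 9 genes in the 4 lines, 1 point per line and gene, with no error bars because each line was 1 sample. Cacul1 is lowest in sh-CACUL1 at 5.39, Cul2 is high in both FLAG-vector lines, and Cul7 and Rbx1 are lowest in FLAG at 13.8 and 19.1.

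Cacul1, the gene that was overexpressed or depleted, was measured at 9.61 FPKM in FLAG and 11.8 with FLAG-CACUL1, 10.2 in sh-Luc and 5.39 with sh-CACUL1. The gene lies on the minus strand of chromosome 19 (GRCm38, 60524696 to 60581025), and its row combined 3 RefSeq transcripts of 1305 to 5792 bases. The sh-CACUL1 line thus stood below the other 3, whose neighbouring counting intervals overlapped. Taken at the shortest transcript, which gives the widest interval, these values correspond to about 181, 219, 322 and 105 fragments. The ratio of sh-CACUL1 to sh-Luc was 0.526, with a 95% interval of 0.415 to 0.654 that covers counting error only. On the log2(FPKM + 1) scale, on which all differences below are given, Cacul1 was at -0.82 in sh-CACUL1 against sh-Luc, while the median of all genes was itself at -0.30. Relative to that median the difference was -0.51, and under quantile normalization and median-of-ratios scaling it was -0.36 and -0.40. It was at percentile 23.0 of the differences of all genes.

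In FLAG-CACUL1 cells the Cacul1 row was 0.27 above FLAG, with a ratio of 1.23 and a counting interval of 1.00 to 1.5. The control lines FLAG and sh-Luc were 0.09 apart. Neither CACUL1 line thus reached a 2-fold difference in the Cacul1 row. At the protein level, the paper states that expression in its stable lines was verified by western blot. An anti-FLAG antibody was used for FLAG-CACUL1 and an anti-CACUL1 antibody for sh-CACUL1. The Cacul1 row gives mRNA only. Whether fragments of the introduced CACUL1 could be counted in this row was not given in the sources used here, which name neither the species of the insert nor the counting program, so the row does not measure the overexpression as such.

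Against FLAG, FLAG-CACUL1 cells had more mRNA of Cul7 and Rbx1 and differed by 0.51 or less in the other 7 genes. Of the 9 genes, 2 were at least 2-fold higher and 0 were 2-fold lower, where 14.7% of all genes were past 2-fold, 7.51% higher and 7.22% lower. Of the 9, 7 lay above 0 and 2 below it, with a median of 0.27 against 0.09 for all genes. With sh-Luc as the control in place of FLAG, 0 of the 9 were past 2-fold and their median was 0.02, where 9.9% of all genes were past 2-fold and the median was -0.10.

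Against sh-Luc, sh-CACUL1 cells had less Cul3 mRNA, at about the size of the Cacul1 difference, and more Cul4b. Here 0 of the 9 genes reached 2-fold, where 21.3% of all genes did, 16.4% lower and 4.94% higher. The 9 genes had a median of -0.43, all genes a median of -0.30 and genes with at least 1 FPKM in all lines a median of -0.43. Of the 9, 7 were below 0, as were 68.7% of all genes. Set against the all-gene median, 6 of the 9 were below and 3 above. Cul1, Cul4a, Cul5 and Cul7, which were lower as deposited, were 0.08, 0.03, 0.25 and 0.01 higher under median-of-ratios scaling, and Cul5 also under quantile normalization at 0.30.

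The controls also differed from each other. In sh-Luc against FLAG, 3 of the 9 genes were past 2-fold, Cul7 and Rbx1 higher and Cul2 lower, where 21% of all genes were, 12.4% higher and 8.58% lower. The 3 comparisons share control samples, so their values are given side by side and were not correlated.

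**Figure D2:**
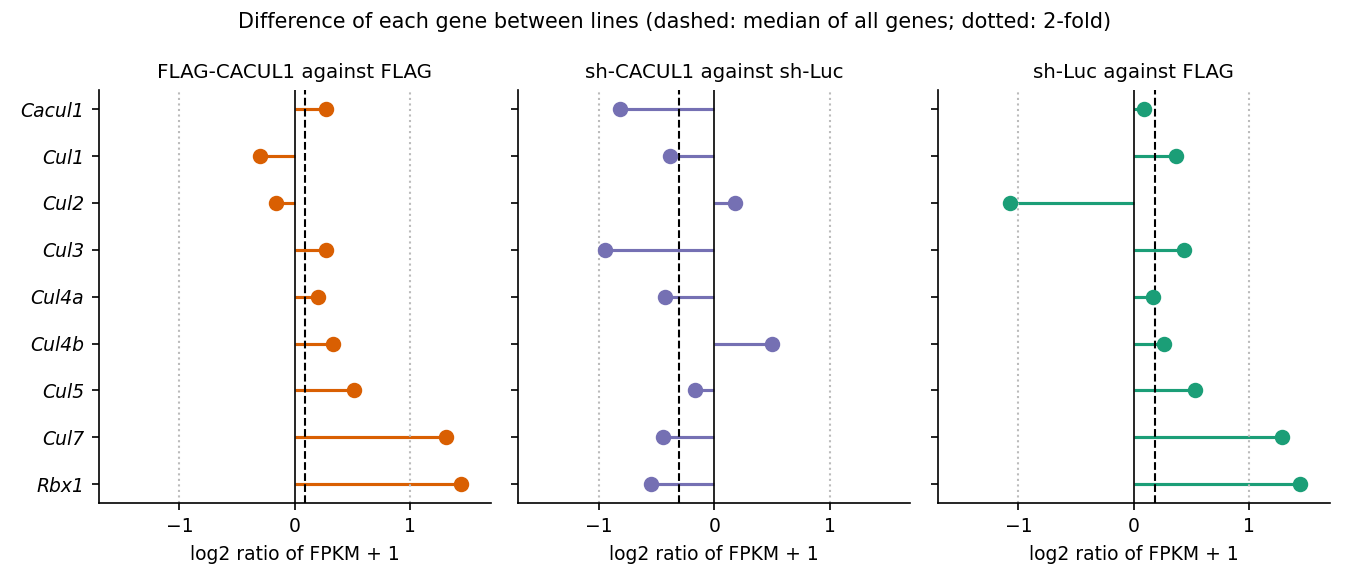
Difference of each gene on the log2(FPKM + 1) scale in FLAG-CACUL1 against FLAG, sh-CACUL1 against sh-Luc and sh-Luc against FLAG, 1 sample per line. The dashed line is the median of all 13085 genes (0.09, -0.30 and 0.18) and the dotted lines mark 2-fold, which Cul7 and Rbx1 pass in the first and the third comparison and Cul2 in the third.

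Cul1, the scaffold of the SCF ligases that work with SKP1 and F-box proteins, was at 32.7 FPKM in FLAG and 26.3 with FLAG-CACUL1, 42.4 in sh-Luc and 32.3 with sh-CACUL1. It was the only one of the 9 genes besides Cul2 that was lower in FLAG-CACUL1 than in FLAG, at -0.30, with a ratio of 0.804 (counting interval 0.745 to 0.869). The difference in sh-CACUL1 against sh-Luc was -0.38. The counting intervals of FLAG and sh-CACUL1 overlapped.

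Cul2 pairs with elongins B and C and with VHL, the receptor that marks the hypoxia factor HIF1α. Its mRNA was at 19.9 FPKM in FLAG and 17.7 with FLAG-CACUL1, 8.94 in sh-Luc and 10.3 with sh-CACUL1. Both lines with a FLAG vector were therefore above both hairpin lines, a pattern found in 17.3% of all genes. The counting intervals overlapped within each vector pair. The differences were -0.16 with FLAG-CACUL1 and 0.18 with sh-CACUL1 against their own controls, but -1.07 in sh-Luc against FLAG. Since the controls differed, the sign of each difference turned with the other control, to 0.91 for FLAG-CACUL1 and -0.89 for sh-CACUL1.

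Cul3 (chromosome 1, 80264923 to 80340480), the scaffold for BTB proteins such as KEAP1, the sensor that keeps NRF2 low, was at 28.1 FPKM in FLAG and 34.2 with FLAG-CACUL1, 38.3 in sh-Luc and 19.4 with sh-CACUL1. No neighbours in this order had overlapping counting intervals. As deposited, the sh-CACUL1 difference of -0.95 was the largest of the 9 genes, but relative to the all-gene median it was -0.64, against 0.80 for Cul4b. It stood at percentile 18.2 of all genes, and the ratio was 0.506 (counting interval 0.476 to 0.538). It kept its sign at -0.49 under median-of-ratios scaling, at -0.59 under quantile normalization and at -0.52 with FLAG as the control. In FLAG-CACUL1 it was 0.27 above FLAG but -0.16 against sh-Luc.

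Cul4a and Cul4b are alternative scaffolds for the adaptor DDB1. Cul4a was at 38.0 FPKM in FLAG and 43.9 with FLAG-CACUL1, 42.7 in sh-Luc and 31.4 with sh-CACUL1. It was the steadiest of the 9 genes, with the highest line 1.40 times the lowest, and differences of 0.20 and -0.43 for FLAG-CACUL1 and sh-CACUL1.

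Cul4b, on chromosome X, was at 11.7 FPKM in FLAG and 15.0 with FLAG-CACUL1, 14.2 in sh-Luc and 20.5 with sh-CACUL1. It was highest in sh-CACUL1 and the only one of the 9 genes with that order. The difference from sh-Luc was 0.50, or 0.80 relative to the median of all genes, with a ratio of 1.44 (counting interval 1.32 to 1.57), at percentile 88.3 of all genes. Scaling raised it to 0.95 by median of ratios and 0.96 by quantiles, and against FLAG it was 0.76. The ratio of Cul4a to Cul4b within a line, which multiplying the line by a factor does not change, was 3.24 in FLAG and 2.92 with FLAG-CACUL1, 3.00 in sh-Luc and 1.53 with sh-CACUL1. The sources used here do not give how reads shared by related genes were assigned.

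Cul5, whose complexes use SOCS-box receptors and the RING protein RNF7, was the least expressed cullin in every line, at 5.00 FPKM in FLAG and 7.54 with FLAG-CACUL1, 7.65 in sh-Luc and 6.69 with sh-CACUL1. FLAG alone stood below the others, whose neighbouring counting intervals overlapped. The difference in FLAG-CACUL1 was 0.51 against FLAG and -0.02 against sh-Luc, and in sh-CACUL1 it was -0.17 against sh-Luc and 0.36 against FLAG.

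Cul7 (GRCm38, chromosome 17, 46650337 to 46664364), the scaffold that binds FBXW8, was at 13.8 FPKM in FLAG and 35.8 with FLAG-CACUL1, 35.3 in sh-Luc and 25.6 with sh-CACUL1. FLAG was the line apart, below each of the other 3. The ratio of FLAG-CACUL1 to FLAG was 2.59 (counting interval 2.41 to 2.77), a difference of 1.31 at percentile 96.3 of all genes. Nearly the same difference, 1.29, separated the controls sh-Luc and FLAG, and against sh-Luc FLAG-CACUL1 differed by 0.02. In sh-CACUL1 it was -0.45 against sh-Luc and 0.84 against FLAG.

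Rbx1 (chromosome 15, 81466296 to 81476369), the RING partner shared by most cullins, was at 19.1 FPKM in FLAG and 53.6 with FLAG-CACUL1, 53.7 in sh-Luc and 36.3 with sh-CACUL1. As with Cul7, FLAG was below all others and sh-CACUL1 came next, and the counting intervals of FLAG-CACUL1 and sh-Luc overlapped. The ratio of FLAG-CACUL1 to FLAG was 2.81 (counting interval 2.52 to 3.13), a difference of 1.44 at percentile 97.3 of all genes. With sh-Luc as the control the difference was -0.0042, so the 2-fold difference rests on the FLAG sample, in which Cd68 and Des were also highest, and their part in it was not tested. In sh-CACUL1 it was -0.55 against sh-Luc and 0.89 against FLAG.

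The promoters of Cul7 and Rbx1 are printed because these were the genes past 2-fold in FLAG-CACUL1 and both were lowest in FLAG. They are the 250 bases before the RefSeq start on GRCm38.p6, with matches to the motifs searched on both strands in capitals.

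Cul7, chr17:46650088-46650337, plus strand: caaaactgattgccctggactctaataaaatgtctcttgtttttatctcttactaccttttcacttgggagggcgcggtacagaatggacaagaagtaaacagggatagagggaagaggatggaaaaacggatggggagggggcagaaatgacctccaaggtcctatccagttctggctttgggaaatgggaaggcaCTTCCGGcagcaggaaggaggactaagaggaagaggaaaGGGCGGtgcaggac
Rbx1, chr15:81466066-81466315, plus strand: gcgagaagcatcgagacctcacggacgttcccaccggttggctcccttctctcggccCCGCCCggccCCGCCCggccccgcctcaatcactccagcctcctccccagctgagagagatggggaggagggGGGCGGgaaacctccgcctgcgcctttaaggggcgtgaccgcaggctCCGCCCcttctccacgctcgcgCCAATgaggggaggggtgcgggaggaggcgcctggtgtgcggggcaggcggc

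The Rbx1 promoter was 72.4% G and C, and the Cul7 promoter 49.6%, against a median of 52.4% over 32851 promoters. Rbx1 held 4 GC boxes (GGGCGG, found in 32.7% of promoters) and 1 CCAAT box (CCAAT, 33.8%). Cul7 held 1 GC box and 1 ETS site (CCGGAAG, 6.91%). None of the promoters searched of Cacul1, Cul1, Cul3, Cul4a, Cul4b, Cul5, Cul7 and Rbx1 held the PPAR response element, read as AGGTCA, any base and AGGTCA again, which stood in 0.0335% of all, nor the NRF1 core, read as GCGC, AT and GCGC in a row, which stood in 0.782%. Cul5 was the only one of them with the letters of a TATA box (TATAAA, 12.4%). They stood at the end of its promoter farthest from the RefSeq start. Of the motifs searched, the GC box was the only one in both Cul7 and Rbx1, but it was not particular to them. Cacul1 held 2 GC boxes, Cul3 held 3 and Cul4a held 2, and the 3 Cul1 promoters held 0, 3 and 1. Cul4b and Cul5 held none. All of these are letter matches, not measured binding.

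The make-up of the cullin mRNAs can be read within each line as the share of the summed FPKM of the 7 cullins, which was 149.3 in FLAG and 180.4 with FLAG-CACUL1, 189.5 in sh-Luc and 146.1 with sh-CACUL1. Cul7 made up 9.27% of it in FLAG and 19.8%, 18.6% and 17.5% in the other lines. Cul2 took 13.4% in FLAG and 9.81% in FLAG-CACUL1 but 4.72% and 7.04% in the hairpin lines. Cul1 was at 14.6% in FLAG-CACUL1 and between 21.9% and 22.4% elsewhere. In sh-CACUL1, Cul3 had its smallest share, 13.3% against 20.2% in sh-Luc, and Cul4b its largest, 14.02% against 7.505%. Cul4a and Cul4b together kept between 30.02% and 35.5%.

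The RING partners differed as well. Rbx1 FPKM per summed cullin FPKM was 0.128 in FLAG and 0.297 with FLAG-CACUL1, 0.283 in sh-Luc and 0.249 with sh-CACUL1, while the same ratio for Rnf7 stayed between 0.239 and 0.321. Rbx1 was thus below Rnf7 in FLAG, at 0.433 of its FPKM, and above it in FLAG-CACUL1, at 1.24 times, with 0.883 and 0.812 in the hairpin lines.

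**Figure D3:**
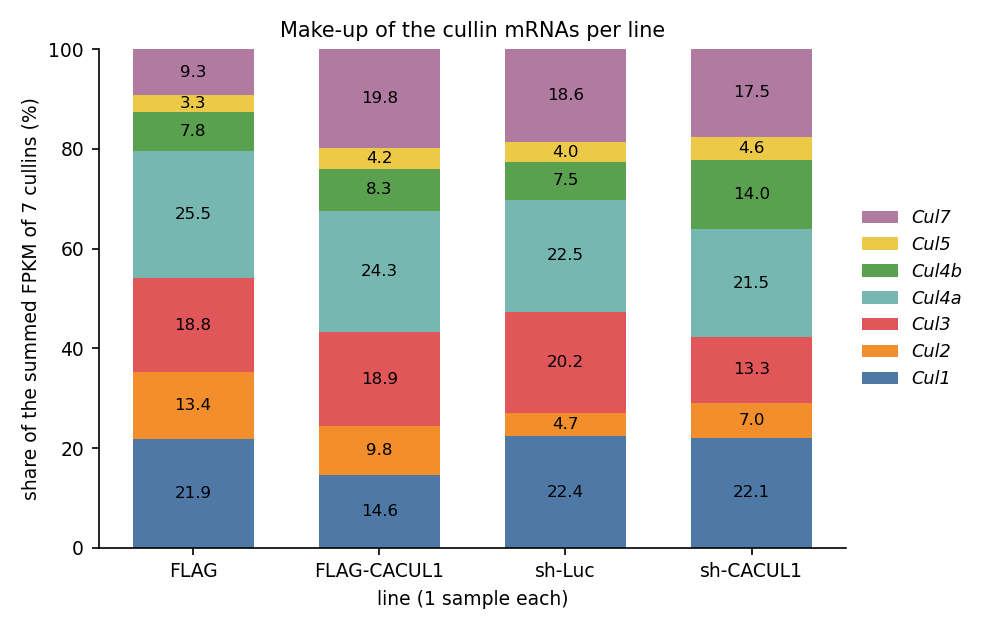
Share of each of the 7 cullins in their summed FPKM, in percent, stacked to 100 for each line (1 sample each). The Cul7 block is smallest in FLAG at 9.27%, the Cul2 block is larger in the FLAG-vector lines, and of the 4 lines sh-CACUL1 has the largest Cul4b block at 14.02% and the smallest Cul3 block at 13.3%.

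Across the lines, 6 of the 9 genes (Cacul1, Cul3, Cul4a, Cul5, Cul7 and Rbx1) had their highest 2 values in FLAG-CACUL1 and sh-Luc, as did 31.5% of all genes. FLAG-CACUL1 and sh-Luc were also the lines with the lower adipocyte marker sums, 882 and 1688 FPKM, and their part in this order was not tested. The order depended on scaling, with 4 of the 9 genes under quantile normalization and 2 (Cul3 and Rbx1) under median of ratios, against 20.2% and 18.3% of all genes.

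The genes whose pattern over the 4 lines lay nearest to that of Cacul1 were Atp6v1c1, Gnai2, Actr1b, Rab2a and Stip1, at Euclidean distances of 0.0140 to 0.0782 between centred log2(FPKM + 1) values, among 9562 genes compared. Atp6v1c1, a subunit of the proton pump of acidic organelles, was at 40.04, 48.7, 43.1 and 23.9 FPKM in FLAG, then FLAG-CACUL1, sh-Luc and last sh-CACUL1. Of the cullins, Cul3 was the nearest, at rank 368 with a distance of 0.295, followed by Cul4a at rank 914. The other members ranked between 4129 and 7115. With 4 lines such a likeness is a description only.

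The wider pathway was read from lists of adaptors, receptors and regulators, 178 genes besides the 9. In FLAG-CACUL1 against FLAG, 11 of the 178 were at least 2-fold higher and 9 at least 2-fold lower, together 11.2% against 14.7% of all genes, with a median of 0.16. In sh-CACUL1 against sh-Luc, 1 was higher and 20 lower, 11.8% against 21.3%, with a median of -0.37, but 6 were higher and 8 lower under quantile normalization, with a median of 0.0093, and 6 higher and 7 lower under median of ratios, with a median of 0.065. The excess of lower genes there thus went with the scaling. In FLAG-CACUL1 the same scalings gave 9 higher and 9 lower, and 6 higher and 10 lower. As deposited, neither share was above that of all genes.

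The relatives of the members were measured for Cul9, Anapc2, Rnf7 and Anapc11, none of which was past 2-fold in either comparison. Cul9 was barely detected, at 0.135 to 0.613 FPKM. Anapc2 and Anapc11, the cullin-like and RING subunits of the anaphase-promoting complex, differed by 0.23 and 0.84 in FLAG-CACUL1 and by -0.48 and -0.62 in sh-CACUL1. Rnf7 was at 44.1, 43.1, 60.8 and 44.8 FPKM in FLAG, then FLAG-CACUL1, sh-Luc and last sh-CACUL1.

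Among the CUL1 adaptor and F-box receptors, 2 of 36 were at least 2-fold higher and 3 lower in FLAG-CACUL1, and 0 higher and 6 lower in sh-CACUL1. These were 13.9% and 16.7% of the list, against 14.7% and 21.3% of all genes. In sh-CACUL1, 16.4% of all genes were lower. Skp1 (Skp1a in the annotation), the adaptor itself, was at 36.1 FPKM in FLAG and 81.0 with FLAG-CACUL1, 90.9 in sh-Luc and 81.8 with sh-CACUL1. FLAG was the lowest line, as for Rbx1, but Skp1 was low in FLAG alone, while Rbx1 was intermediate in sh-CACUL1. The Skp1 difference was 1.14 with FLAG-CACUL1 and -0.15 with sh-CACUL1. Fbxo9 was also low in FLAG alone, at 3.81 FPKM against 9.35 to 10.4 elsewhere. Fbxl12 had the reverse pattern, at 17.8 FPKM in FLAG against 5.99 to 7.43. Ccnf, the F-box protein cyclin F, was at -1.66 in FLAG-CACUL1. In sh-CACUL1 the lower receptors were led by Fbxl2 at -1.87, Fbxo5, the inhibitor of the anaphase-promoting complex, at -1.57, Fbxw9 at -1.39 and Fbxo30 at -1.37. Fbxo5 was at 0.812 FPKM in FLAG and 0.944 with FLAG-CACUL1, 6.14 in sh-Luc and 1.40 with sh-CACUL1. The line apart for Fbxo5 was thus the control sh-Luc, and sh-CACUL1 was above both FLAG-vector lines.

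The CUL2 and CUL5 adaptors and receptors had 5 of 36 genes at least 2-fold higher and 4 lower in FLAG-CACUL1, and 0 higher and 5 lower in sh-CACUL1. Together these were 25% and 13.9% of the list, against 14.7% and 21.3% of all genes. Vhl was at 51.3 FPKM in FLAG and 16.6 with FLAG-CACUL1, 14.6 in sh-Luc and 16.1 with sh-CACUL1. FLAG was again the line apart, here on the high side, with a difference of -1.57 with FLAG-CACUL1 and 0.13 with sh-CACUL1. Socs5, of the suppressors of cytokine signalling, was at 5.11, 23.9, 15.4 and 6.10 FPKM in the same order of lines, 2.03 higher in FLAG-CACUL1 and -1.21 in sh-CACUL1. Socs1 was at 4.83, 12.9, 11.5 and 2.30 FPKM, with -1.93 in sh-CACUL1. For Socs5 and Socs1 FLAG and sh-CACUL1 were thus the low lines. Cish was at -1.46 and Asb6 at 1.44 in FLAG-CACUL1, but in sh-Luc against FLAG they were at -2.25 and 1.43. Wsb2 was at 1.04 in FLAG-CACUL1 and -1.45 in sh-CACUL1. Wsb1 was at -1.405 and -1.15, lower in both.

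The BTB receptors of CUL3 had 1 of 41 genes at least 2-fold higher and 2 lower in FLAG-CACUL1, and 1 higher and 4 lower in sh-CACUL1. Their shares past 2-fold were 7.32% and 12.2%, against 14.7% and 21.3% of all genes. Kctd10 was at 60.8 FPKM in FLAG and 73.0 with FLAG-CACUL1, 84.8 in sh-Luc and 18.3 with sh-CACUL1. It was lower in sh-CACUL1 than in each other line by more than 2-fold, as were 5.53% of all genes, and its difference of -2.15 was the largest of the pathway there. Tnfaip1, its close relative, was at -1.17. Zbtb16, the transcription factor PLZF, was at -1.21 in FLAG-CACUL1 and at -1.67 in sh-CACUL1, lower in both. Klhl2 was the 1 receptor that was higher in sh-CACUL1, at 16.04 FPKM against 6.37 in sh-Luc, or 1.21. Enc1 was at 1.40 and Rhobtb1 at -1.15 in FLAG-CACUL1, and in sh-Luc against FLAG they were at 1.26 and -0.54.

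Of the CUL4 adaptor and DCAF receptors, 1 of 25 was at least 2-fold higher in FLAG-CACUL1 (Dcaf5 at 1.09) and 2 were lower in sh-CACUL1. That is 4% and 8% of the list, against 14.7% and 21.3% of all genes. Ddb1, the adaptor of both CUL4 scaffolds, was at 146 FPKM in FLAG and 173 with FLAG-CACUL1, 210 in sh-Luc and 83.2 with sh-CACUL1. It was lowest in sh-CACUL1, at -1.33 against sh-Luc, in the line where Cul4b was highest. The other was Phip at -1.14, with 2.12, 4.68, 10.9 and 4.40 FPKM in the same order of lines, so the control sh-Luc was the line apart. The CUL7 partners Fbxw8 and Obsl1 were not past 2-fold, with 0.12 and 0.61 in FLAG-CACUL1 and -0.24 and -0.14 in sh-CACUL1.

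The neddylation enzymes had 2 of 10 genes at least 2-fold higher in FLAG-CACUL1 and none past 2-fold in sh-CACUL1. Of all genes, 7.51% were higher in FLAG-CACUL1, and 14.7% and 21.3% were past 2-fold in the 2 comparisons. Nedd8 was at 75.6 FPKM in FLAG and 165 with FLAG-CACUL1, 181 in sh-Luc and 148 with sh-CACUL1. Dcun1d2, which helps NEDD8 onto cullins, was at 1.59, 7.34, 10.6 and 6.96 FPKM. Both were lowest in FLAG, as Rbx1 was, with differences of 1.11 and 1.69 in FLAG-CACUL1. The COP9 signalosome list had 0 of 11 genes past 2-fold in either comparison, with medians of 0.36 and -0.47. Its catalytic subunit gene Cops5, chosen after its values were seen, was at 25.1, 34.1, 45.0 and 38.3 FPKM.

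Of the exchange and inhibitor genes, Cand1 was at 12.2 FPKM in FLAG and 23.2 with FLAG-CACUL1, 21.3 in sh-Luc and 8.69 with sh-CACUL1. Cand2 was at 1.68, 2.67, 4.74 and 1.31 FPKM. As deposited, both were more than 2-fold below sh-Luc in sh-CACUL1, at -1.20 and -1.31, where the median of all genes was -0.30. Their values under the other scalings are not given here. Of the 178 pathway genes, 20 were at least 2-fold lower in sh-CACUL1 as deposited but 7 under median-of-ratios scaling. Glmn was at -0.15, and 0 of these 3 exchange and inhibitor genes were past 2-fold in FLAG-CACUL1. Among the 10 ubiquitin-loading enzymes, Ube2d1 was past 2-fold in sh-CACUL1, at -1.37, and none was in FLAG-CACUL1. Of all genes, 21.3% were past 2-fold in sh-CACUL1, 16.4% of them on the lower side, and 14.7% in FLAG-CACUL1.

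FLAG was at least 2-fold below each of the other lines for 3 of the 178 pathway genes (Dcun1d2, Fbxo9 and Skp1), or 1.69%, where 1.42% of all genes had this pattern. It was at least 2-fold above each for 3 others (Cish, Fbxl12 and Vhl), where 3.33% of all genes were. None of the 9 members met either limit on the log2(FPKM + 1) scale, since Cul7 and Rbx1 were 0.84 and 0.89 higher in sh-CACUL1 than in FLAG. The other control, sh-Luc, was at least 2-fold above each other line for 2 pathway genes (Fbxo5 and Phip), or 1.12%, against 1.7% of all genes.

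**Figure D4:**
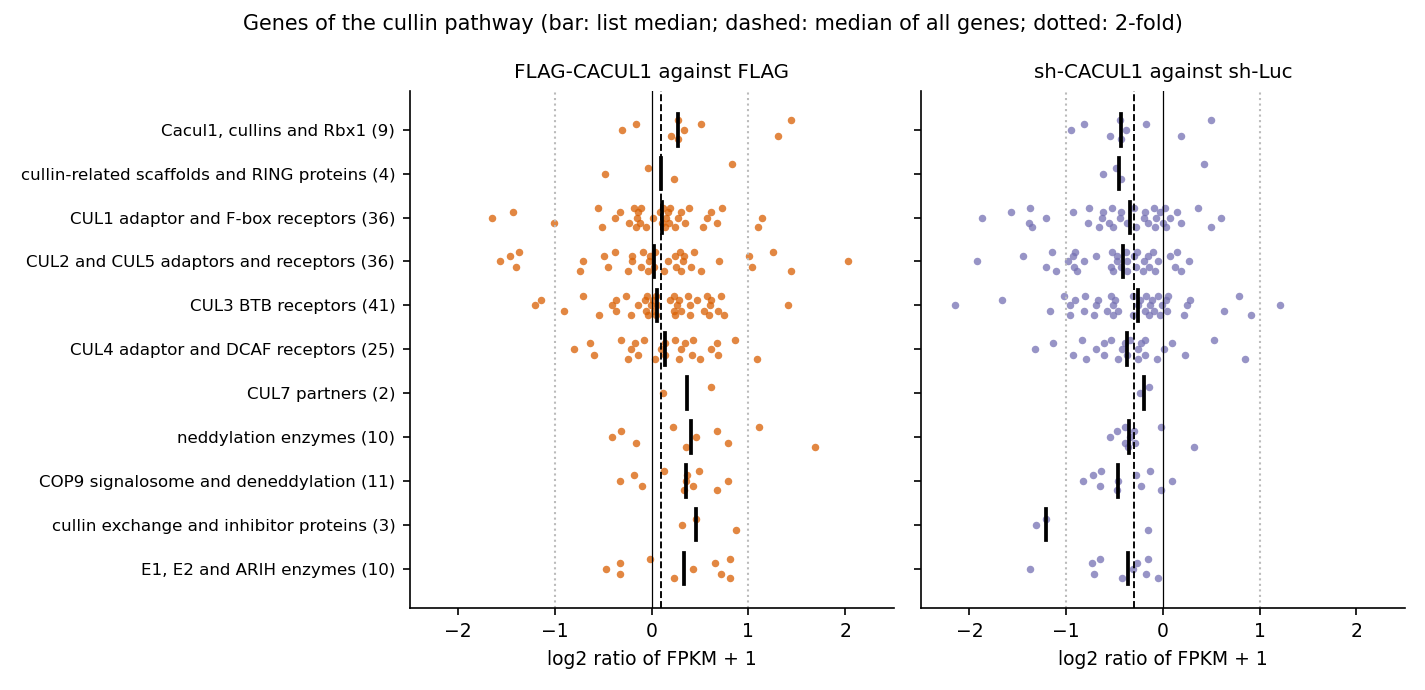
Difference on the log2(FPKM + 1) scale of each pathway gene (points) by list, with the list median (bar), for FLAG-CACUL1 against FLAG and sh-CACUL1 against sh-Luc; the number of genes measured stands beside each list, and the dashed line is the median of all genes. The all-gene medians are 0.09 and -0.30, and list medians run from 0.03 to 0.46 in the first comparison. In sh-CACUL1 the exchange and inhibitor list, of 3 genes, has a median of -1.20 as deposited.

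The binding partners of CACUL1 were read beside it, and Pparg among them is also an adipocyte marker. Cdk2 was at 6.79 FPKM in FLAG and 10.9 with FLAG-CACUL1, 15.7 in sh-Luc and 12.5 with sh-CACUL1, with differences of 0.61 and -0.30. Sirt1, a deacetylase, was low in all lines, at 0.602 FPKM in FLAG and 2.24 with FLAG-CACUL1, 2.69 in sh-Luc and 1.35 with sh-CACUL1. Its differences were 1.02 and -0.65. The controls sh-Luc and FLAG differed by 1.21, and FLAG-CACUL1 was below sh-Luc, so the 1.02 rests on the FLAG sample. Kdm1a, which encodes the demethylase LSD1, was at -0.17 and -0.50. Pparg was at 70.1, 12.3, 14.8 and 61.8 FPKM in FLAG, then FLAG-CACUL1, sh-Luc and last sh-CACUL1, with -2.42 and 2.00. Its high lines were FLAG and sh-CACUL1.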

How the data were processed

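RNA was sequenced from 1 sample each of 4 stable lines, taken on day 8 of adipogenesis. The deposited values are FPKM, which the authors give for 13110 rows, and the rows carry RefSeq transcript identifiers. The genome build is mm10 per the submitters' processing notes. Library preparation, sequencing and the selection of genes at a 2-fold cut-off were done by a company. The aligner, the counting program and the normalization between samples are not given in the sources used here.

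Rows were joined to symbols through GENCODE M21 on GRCm38. Of the rows, 196 had no symbol and 8 more than 1, and 50 rows of 25 symbols were summed, which left 13085 genes. The 9 members also had the same symbols in the RefSeq table. Differences were computed as log2 ratios of FPKM + 1, so changes at low FPKM are understated, and 2-fold or more was counted as a difference. Each line was set against the control with its own vector. With 1 sample per line, no SD, SE or p-value was computed. A list is described by its counts and median beside those of all genes.

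Depth was estimated from 4185 rows of single transcripts of at least 3000 bases. Of these, only the rows with low FPKM multiplied by length were used, 293 to 329 per line. The spacing that best put these values on whole multiples was taken as the value of 1 fragment on 1 kb. The match was partial, with scores of 0.468 to 0.572 where a perfect match gives 1. Fragment numbers and exact 95% intervals follow from this estimate, the shortest transcript of the row and the FPKM, and cover counting error only.

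The members and lists were chosen with earlier results of these data known. Of the 182 listed pathway genes, 178 were measured, and Spsb4, Klhl3, Klhl13 and Ccdc8 were not analysed here. Besides the 9 members, the genes named were those past 2-fold, at most 4 per list and comparison, all genes of lists of 4 or fewer, Cdk2, and the 5 genes nearest to Cacul1. Cops5 was named outside this rule, after its values were seen. Alternatives were pseudocounts of 0.1 and 0, a filter at 1 FPKM, quantile normalization, median-of-ratios scaling, rescaling to a sum of 1000000, the other control, the highest row per symbol and cut-offs of 1.5-fold and 3-fold. The scalings of the order of lines were added after seeing the data. Scripts were tested on simulated data. Python 3.11.15, numpy 2.4.6, scipy 1.17.1, pandas 2.3.3 and matplotlib 3.10.9 were used.

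Sequences are from RefSeq (promoters, GRCm38.p6) and GENCODE M21 (reading frames).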

Additional observations from a re-analysis of the deposited data

How the results depend on the processing

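No paired analysis was possible because each line had 1 sample, and for the same reason no sample could be left out. The 18 single-gene differences of the members kept their sign under the pseudocounts of 0.1 and 0, the filter at 1 FPKM, rescaling to a sum of 1000000 and the highest row per symbol. The sign changed for 4 under median-of-ratios scaling, 1 under quantile normalization and 8 with the other control, among them Rbx1 in FLAG-CACUL1, at -0.0042 against sh-Luc. In sh-CACUL1, Cacul1 moved to -0.36 under quantile normalization and -0.40 under median of ratios. The members' median in sh-CACUL1 moved to -0.082 under quantile normalization, 0.031 under median of ratios, -0.28 when rescaled to a sum of 1000000 and -0.019 with the other control. In FLAG-CACUL1 it moved to 0.14 under median of ratios and 0.020 with the other control, where 0 members were past 2-fold, as at 3-fold. At 1.5-fold, 2 of the 9 members were past the limit in sh-CACUL1, where 44.4% of all genes were. Pathway genes past the limit in sh-CACUL1 numbered 35 of 178 with a pseudocount of 0.1, 39 with none and 13 under median of ratios. They numbered 61 at 1.5-fold and 4 at 3-fold. In the same order, 31.8%, 36.7%, 16.9%, 44.4% and 7.15% of all genes were past it. In FLAG-CACUL1 the pathway genes past it numbered 11 with the other control, 52 at 1.5-fold and 3 at 3-fold. Of all genes, 9.9%, 34.3% and 5.07% were. Members with their highest 2 values in FLAG-CACUL1 and sh-Luc went from 6 to 2 under median of ratios. The cause of these shifts was not tested. In sh-CACUL1, all genes past 2-fold were 647 higher and 2141 lower as deposited, 1178 and 1084 under quantile normalization and 1231 and 975 under median of ratios. In FLAG-CACUL1 they were 983 and 945 as deposited and 755 and 1169 under median of ratios. Over all genes, no pseudocount gave 3775 genes past 2-fold in FLAG-CACUL1 and 4799 in sh-CACUL1, in place of 1928 and 2788, and 3-fold left 663 and 936. The lowest estimate of fragments among the members was about 105, for Cacul1 in sh-CACUL1, taken at the shortest of its transcripts.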
